A study of Mus musculus with 24 samples.

Results

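The copy number of 9 cancer-related genes on the distal part of mouse Chr 11 was analyzed in transgenic adrenal glands and neuroblastoma tumors. The genes, Ppm1d, Tbx2, Brip1, Nme2, Nme1, Top2a, Brca1, Sox9 and Birc5, were listed by name because their human counterparts lie on Chr 17q. They are 9 of 20621 autosomal protein-coding genes, and 9 of 1618 on Chr 11.

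Shallow whole genome sequencing (sWGS), which reads the genome thinly and counts reads in windows, was performed on 24 mouse samples. Wildtype adrenal glands (AG, CRE -, n = 3) served as the reference and carry no values of their own. Segment values were analyzed for 5 adrenal glands with a MYCN transgene (AGM; MYCN fl/wt, CRE +), 8 tumors with an IGF2BP1 transgene (TI; IGF2BP1 +/+, CRE +, except replicate 1, which is IGF2BP1 +/-, CRE +) and 8 tumors with both transgenes (TIM; labeled IMP1/MYCN, CRE +, where IMP1 is another name of IGF2BP1). AGM, TI and TIM all carry the Cre recombinase, driven by Dbh, a gene of sympathetic nerves and the adrenal medulla. Transgenes were integrated at Rosa26 on a C57Bl6/N background, and the IGF2BP1 transgene lacks its 3' UTR. AGM glands were not tumors, so TI and TIM differ from them in tissue as well as in genotype. TI 6, TIM 1 and TIM 5 were adrenal gland tumors according to the labels, and the remaining tumors are labeled only as tumors. The ages of the mice were not used here. Nothing in the labels states that each tumor came from its own animal, so the p-values treat samples, not animals, as the units. The paper reports more tumors than mice for the genotype with both transgenes, so some TIM samples may share an animal.

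Human 17q is gained in many high-risk neuroblastomas, usually as a segment running from somewhere along the arm to its end, so that genes toward the end are gained together. Mouse Chr 11 carries the genes of human Chr 17 next to stretches matching other human chromosomes. Among the 9 genes, Ppm1d encodes the phosphatase WIP1, which switches off the ATM response to DNA damage. Brip1 encodes a helicase that binds Brca1, and Brca1 itself acts in repair by homologous recombination. Tbx2 and Sox9 encode transcription factors of development, Sox9 being known for neural crest and cartilage. Nme1 and Nme2 are nucleoside diphosphate kinases, Top2a is the topoisomerase of proliferating cells, and Birc5 encodes survivin, a member of the chromosomal passenger complex and an inhibitor of apoptosis.

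All positions are given in GRCm39, which is the build mm39 used by the authors, and come from the GENCODE M39 annotation. From proximal to distal, Ppm1d (ENSMUSG00000020525) spans chr11:85202017-85239268 on the plus strand, Tbx2 (ENSMUSG00000000093) chr11:85723377-85734115 on the plus strand and Brip1 (ENSMUSG00000034329) chr11:85948957-86092592 on the minus strand. Nme2 (ENSMUSG00000020857) spans chr11:93840587-93847300 and Nme1 (ENSMUSG00000037601) chr11:93847803-93887377, both on the minus strand. Top2a (ENSMUSG00000020914) lies at chr11:98883769-98915062 and Brca1 (ENSMUSG00000017146) at chr11:101379577-101442781, again on the minus strand. Sox9 (ENSMUSG00000000567) lies at chr11:112673009-112678586 and Birc5 (ENSMUSG00000017716) at chr11:117740040-117746581, both on the plus strand. The set spans 32.5 Mb. It is not evenly spaced, with a first cluster of Ppm1d, Tbx2 and Brip1, a gap of 7.75 Mb up to Nme2, 502 bases between Nme2 and Nme1, and the widest gap of 11.2 Mb between Brca1 and Sox9.

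In 2 tumors the level on Chr 11 first reached the gain threshold given below within the set, at window edges on either side of Brip1. In TIM 5 the level had already risen proximal to the set. Its log2 ratio to AG went from 0.033 to 0.185 at chr11:70460001, so the TIM 5 edge is a further step and not the start of its rise. The 100 bases around each edge are shown on the plus strand to mark where the copy number changed in the deposited segments, with the bases of the gained segment in capitals. The edges lie on a grid of 20 kb, so the true junction was not resolved and need not be in the bases printed. The TIM 5 edge is at chr11:85759951-85760050, between Tbx2 and Brip1, 25886 bases past the end of Tbx2 and 188956 bases before the body of Brip1. The TI 4 edge is at chr11:86099951-86100050, 7409 bases past the annotated start of Brip1. Neither lies in the body of one of the 9 genes.
TIM 5 edge: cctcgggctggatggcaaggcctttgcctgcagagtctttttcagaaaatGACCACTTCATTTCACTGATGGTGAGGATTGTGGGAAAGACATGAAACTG
TI 4 edge: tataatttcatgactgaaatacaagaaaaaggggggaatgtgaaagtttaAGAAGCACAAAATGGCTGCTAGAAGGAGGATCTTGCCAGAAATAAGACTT

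Apart from copy number, which follows the segments the genes lie on, the 250 bases before the start sites of the 9 genes were described. The canonical E-box bound by MYC proteins (CACGTG, which reads alike on both strands) was searched in the RefSeq promoter table (GRCm38.p6), which held 7 of the 9 genes, all but Tbx2 and Sox9. Each window was then placed on GRCm39 by an exact match, with 1 match per window. The E-box was present in 1 of these 7 genes, Nme1, compared with 6.86% of all 27025 genes. Nme1 has 2 windows, chr11:93859099-93859348 and chr11:93858852-93859101 (minus strand), with 1 match in each. The first is shown because it holds a match, printed in capitals. The Brip1 window at chr11:86092020-86092269 (minus strand) is shown because the TI 4 gain begins 7982 bases from this start site. It holds no CACGTG.
Nme1 promoter: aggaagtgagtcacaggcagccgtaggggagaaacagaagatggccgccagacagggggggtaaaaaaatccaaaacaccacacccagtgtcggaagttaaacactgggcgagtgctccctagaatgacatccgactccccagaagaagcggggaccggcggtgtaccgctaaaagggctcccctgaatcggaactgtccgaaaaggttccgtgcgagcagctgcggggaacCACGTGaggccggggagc
Brip1 promoter: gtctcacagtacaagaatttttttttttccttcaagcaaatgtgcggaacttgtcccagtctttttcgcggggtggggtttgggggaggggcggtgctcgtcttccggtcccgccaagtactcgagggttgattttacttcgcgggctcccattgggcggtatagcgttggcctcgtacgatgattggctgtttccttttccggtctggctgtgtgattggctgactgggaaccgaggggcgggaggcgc

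Each value below is the median log2 ratio of the segment that covers most of a gene, relative to AG. A value of 0 stands for the reference copy number, a gain for at least 0.3 and a loss for at most -0.4, the thresholds named in the methods of the study. Genes on the same segments have the same values, so the 9 genes carry 5 patterns over the 21 samples: Ppm1d with Tbx2, Brip1, Nme2 with Nme1, Top2a with Brca1, and Sox9 with Birc5. These shared values are not independent measurements. In a tumor sample, fewer cells with a gain and a smaller gain per cell cannot be told apart. The number of segments per sample was 50 to 57 in AGM, 55 to 118 in TI and 48 to 123 in TIM, and none of 210 sample pairs had identical values (0 of 210). The coverage was low by design, and reads per window were not used here. The sample titles start with SH for 7 of 8 TI tumors and all AG glands, and with AGH for TI 8 and all AGM and TIM samples. What these prefixes stand for is not given in the sources used here, and genotype and prefix cannot be told apart for the other TI tumors.

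The 5 AGM glands gave one flat level over all 9 genes. The log2 ratio was 0.015 in AGM 1, 0.012 in AGM 2, 0.013 in AGM 3, 0.011 in AGM 4 and 0.009 in AGM 5, for every gene of the set. The SD between glands was 0.0020 (n = 5), and no segment edge fell between Ppm1d and Birc5 in any of them (0 of 5).

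Birc5 is described first, as the gene of the set nearest to the end of the chromosome. In TI its log2 ratio was 0.57, 0.96, 0.60, 0.53, 0.61, 0.03, 0.62 and 0.59 in replicates 1 to 8. Taken as 2 times the linear ratio, the copy number was 3.90 in TI 2, 2.04 in TI 6 and between 2.89 and 3.07 in the others. TI 6 stood apart near the reference level, TI 2 was close to 4 copies and the other 6 tumors lay near 3. In TIM the log2 ratio of Birc5 was 0.01, 0.03, 0.12, 0.01, 0.01, 0.58, 0.01 and 0.01 in replicates 1, 4, 5, 7, 8, 9, 11 and 12. Only TIM 9 had a gain, TIM 5 was raised without reaching the threshold, and the ranges of the groups overlapped. Sox9 shared each of these values.

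Top2a and Brca1 gave the same TI values as Birc5. In TIM their log2 ratio was 0.41 in TIM 5 and 0.59 in TIM 9, so that 2 TIM tumors had a gain, and between 0.008 and 0.026 in the other 6. Nme2 and Nme1 also had the TI values of Birc5, with 0.22 in TIM 5 and 0.59 in TIM 9. TIM 5 therefore fell back below the threshold at the kinase genes and rose above it again at Top2a.

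Ppm1d, Tbx2 and Brip1 differed from the distal genes in TI 4, where their log2 ratio was 0.004 in place of 0.53. TI 6 was at 0.037 and the other 6 TI tumors had the values given for Birc5. In TIM 5, Ppm1d and Tbx2 were at 0.19 and Brip1 at 0.36, and in TIM 9 all 3 genes were at 0.54. Brip1 thus had a gain in TIM 5 although its neighbor Tbx2, 215 kb away, did not.

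**Figure D1:**
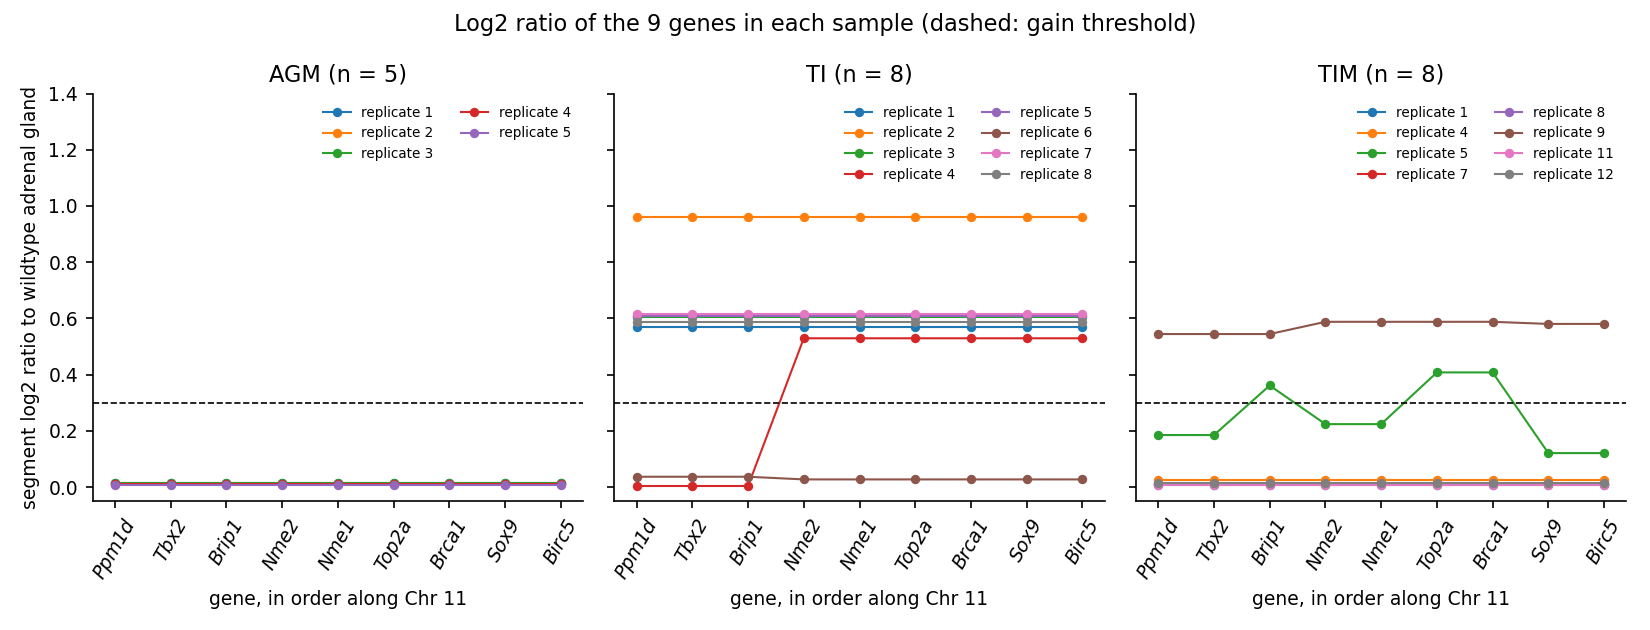
The vertical axis is the segment log2 ratio to wildtype adrenal gland, the horizontal axis lists the 9 genes in order along Chr 11, and each line is 1 sample of AGM, TI or TIM. AGM lines lie between 0.009 and 0.015, TI 4 steps from 0.004 to 0.53 between Brip1 and Nme2, and TIM 5 crosses the dashed gain threshold of 0.3 at Brip1 and again at Top2a and Brca1.

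The number of tumors with a gain followed these levels. Nme2, Nme1, Sox9 and Birc5 were gained in 7 of 8 TI and 1 of 8 TIM tumors, Top2a and Brca1 in 7 of 8 and 2 of 8, Brip1 in 6 of 8 and 2 of 8, and Ppm1d and Tbx2 in 6 of 8 and 1 of 8. In AGM no gene of the set had a gain, and no gene of the set had a loss in any sample. All 9 genes were gained in at least 6 TI tumors, which held for 713 of all genes (3.46%), and 6 of the 9 in 7 TI tumors (3.26% of all genes). Of these 713 genes, 712 lie on Chr 11. The exception, Tcerg1l on Chr 7, was gained in 7 TI, 8 TIM and all 5 AGM samples. A gain in at least 2 TIM tumors was seen for Brip1, Top2a and Brca1, 3 of 9, compared with 7.2% of all genes.

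To ask whether the genes differ in copy number between TI and TIM, Mann-Whitney rank sums were tested over all possible splits of the 16 tumors (exact permutation, two-sided), with Benjamini-Hochberg (BH) adjustment over all 20621 genes. The median log2 ratio of every gene in the set was 0.5957 in TI and 0.0129 in TIM. The levels of Sox9 and Birc5 were higher in TI in 60 of 64 tumor pairs (exact p = 0.00186, adjusted p = 0.0271). Nme2, Nme1, Top2a and Brca1 were higher in 59 of 64 pairs (exact p = 0.00295, adjusted p = 0.0271). Ppm1d, Tbx2 and Brip1 were higher in 54 of 64 pairs, which did not pass the threshold of 0.05 after adjustment (exact p = 0.0207, adjusted p = 0.0733). Thus 6 of 9 genes were called higher in TI, against 10.7% of all genes. The rank test also responds to small shifts, since 39.2% of all genes had an unadjusted exact p under 0.05 between TI and TIM, while the median gene had a log2 ratio of 0.0083 in TI and 0.0117 in TIM.

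The calls between TI and TIM depended on single TI tumors. Leaving out TI 3, TI 5 or TI 7 left 0 of the 9 genes past the threshold, and leaving out TI 1 left 2, Sox9 and Birc5. The adjusted p of the lost calls was then between 0.0512 and 0.0542 and their unadjusted exact p between 0.00373 and 0.00591. Leaving out TI 4 brought all 9 genes past the threshold, with an adjusted p of 0.0335 for Ppm1d, Tbx2 and Brip1 in the exact test. With TIM 5 and TIM 9 left out together, an alternative chosen after seeing the data, the same 6 genes were called. TI 8, the only TI tumor whose title has the prefix of the TIM tumors, had a log2 ratio of 0.587 at all 9 genes. It was above all 8 TIM tumors at Ppm1d, Tbx2, Brip1, Sox9 and Birc5 and above 7 of 8 at the other genes, where TIM 9 was at 0.588.

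The gain counts of TI and TIM were compared by Fisher's exact test. For the 4 genes gained in 7 and 1 tumors the exact p was 0.0101 (adjusted p = 0.557), for Top2a, Brca1, Ppm1d and Tbx2 it was 0.0406 (adjusted p = 0.621), and for Brip1 0.132 (adjusted p = 1). Fisher's exact test called none of the 9 genes after BH adjustment, as it called 0% of all genes, although 8 of the 9 and 1346 of all genes (6.53%) had an unadjusted p under 0.05. Moving the gain threshold to 0.1, 0.2 or 0.5 left the TI counts as they were. In TIM it moved the count of Nme2 and Nme1 to 2 at 0.1 and at 0.2, that of Ppm1d, Tbx2, Sox9 and Birc5 to 2 at 0.1, and those of Brip1, Top2a and Brca1 to 1 at 0.5. Each of these shifts came from TIM 5, the only tumor with levels between 0.1 and 0.5 at these genes.

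Compared with AGM, TI tumors were higher at all of Nme2, Nme1, Top2a, Brca1, Sox9 and Birc5 in 40 of 40 pairs of samples. The lowest TI value of these 6 genes, 0.028 in TI 6, lay above the highest AGM value of 0.015, so the groups did not overlap (exact p = 0.00155, the smallest that 8 against 5 samples allow, adjusted p = 0.0099). TI 6 had no gain at these genes. Its autosomal median was 0.0253, so that 0.028 was close to its own baseline. Ppm1d, Tbx2 and Brip1 were higher in 35 of 40 pairs (exact p = 0.0295, adjusted p = 0.0616), since TI 4 lay below every gland. The call was made for 6 of 9 genes, against 6.35% of all genes. Subtracting the autosomal median of each sample brought all 9 genes past the threshold, with an adjusted p of 0.0126 for Ppm1d, Tbx2 and Brip1. TIM and AGM did not differ detectably at any of the 9 genes, with TIM higher in 25 of 40 pairs (exact p = 0.524, adjusted p = 0.67). This permutation test called 0% of all genes, and of 1671 genes with an unadjusted p under 0.05 none was in the set (0 of 9). The comparisons with AGM share the same 5 glands.

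The labeled site divided the tumors as follows. All 7 TI tumors not labeled as adrenal gland tumors were gained at Nme2, Nme1, Top2a, Brca1, Sox9 and Birc5, and TI 6, the adrenal gland tumor, was not. Of the 6 TIM tumors without this label only TIM 9 was gained at each of the 9 genes. Among adrenal gland tumors of TIM, TIM 1 was flat at 0.008 and TIM 5 carried the interrupted pattern. With 3 adrenal gland tumors in all, no test was made.

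Next, each gene was related to the proximal breakpoint, taken as the start of the uninterrupted gained region that reaches it. Of the 7 TI tumors with a gain, 6 had a breakpoint proximal to Ppm1d and hence gained all 9 genes. The breakpoint lay at chr11:49820001 in TI 5, chr11:58280001 in TI 8, chr11:71940001 in TI 3, chr11:73300001 in TI 2, chr11:77960001 in TI 7, chr11:83220001 in TI 1 and chr11:86100001 in TI 4. The median was 73.3 Mb with an SD of 13.2 Mb (n = 7) and a range of 36.3 Mb. These values depend on TI 5, where the gain starts at a level of 0.34, close to the threshold. With gains called from 0.2 its breakpoint moved to 3.26 Mb and the range became 82.8 Mb, and with gains called from 0.5 they were 79.3 Mb and 27.8 Mb. No 2 tumors shared a breakpoint, and the gain ran from it to within 0.173 Mb of the end of Chr 11 in each of them, over 35.8 to 72.1 Mb (TI 5 being the longest, with 119 Mb at 0.2 and 42.6 Mb at 0.5). In these tumors the last segment had a log2 ratio of 0.000, and 57.7 to 100% of its bases are N in the reference.

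Igf2bp1, the endogenous copy of the transgene's gene, lies between Nme1 and Top2a and was gained in 7 TI and 1 TIM tumors, with the same values as Nme2 and Nme1. The distance from the breakpoint to the near end of a gene grew along the chromosome by construction. It ranged from 1.98 to 35.4 Mb at Ppm1d (median 12.6 Mb, n = 6), from 7.74 to 44.0 Mb at Nme2 (median 20.5 Mb, n = 7), from 12.8 to 49.1 Mb at Top2a and from 31.6 to 67.9 Mb at Birc5 (median 44.4 Mb, n = 7). In each of the 7 gained TI tumors Birc5 lay farthest from the breakpoint, an order that its position fixes.

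**Figure D2:**
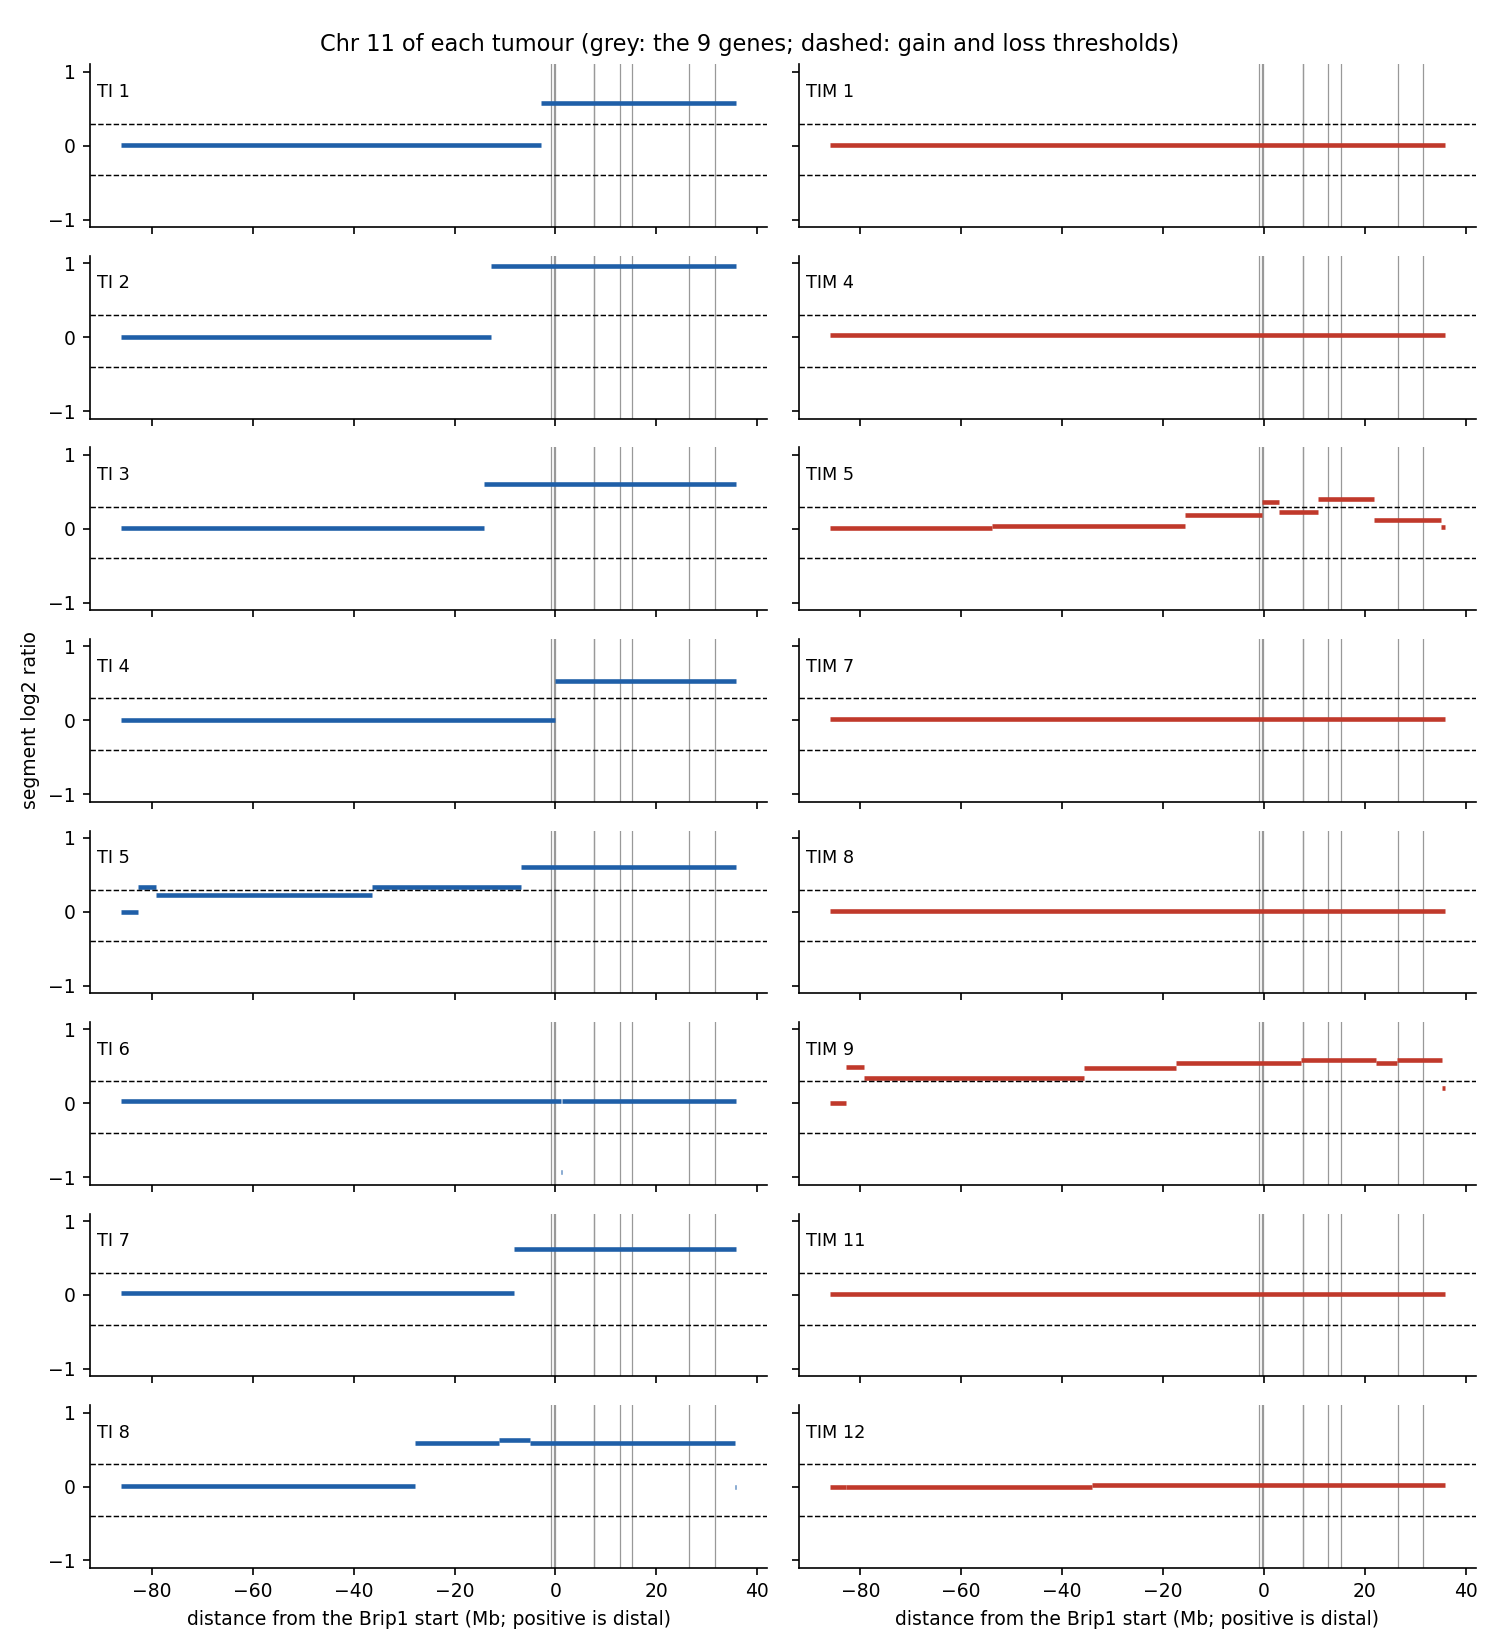
Each panel shows the segment log2 ratios along Chr 11 of 1 tumor (left TI, right TIM) against the distance from the Brip1 start in Mb, positive toward the distal end; grey lines mark the 9 genes and dashed lines the thresholds of 0.3 and -0.4. In 7 of 8 TI tumors a raised level reaches nearly to the distal end, whereas in TIM only TIM 5 and TIM 9 leave the baseline.

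The segment borders set where the 9 genes could differ. Within the span from Ppm1d to Birc5, a segment edge was found in 0 of 5 AGM, 2 of 8 TI and 2 of 8 TIM samples. In TI 4 the level rose by 0.525 at 86.1 Mb, leaving Ppm1d, Tbx2 and Brip1 outside the gain and the 6 distal genes inside. In TI 6 a loss of 180 kb at chr11:87220001-87400000 with a log2 ratio of -0.93 lay between Brip1 and Nme2. It covered Rad51c, a recombination gene, entirely, 69.1% of Tex14 and 22.7% of Ppm1e, and was the only loss on Chr 11 in the 21 samples.

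TIM 5 changed level 4 times within the span of the set. Its log2 ratio was 0.19 over Ppm1d and Tbx2, 0.36 from 85760001 to 89020000 over Brip1, 0.22 over Nme2, Nme1 and Igf2bp1, 0.41 from 96780001 to 107920000 over Top2a and Brca1, and 0.12 over Sox9 and Birc5. The steps were between 0.137 and 0.287 in size. The spread expected of segments of this length within a tumor was not measured. The GC contents of these 5 segments were, in the same order, 45%, 44.7%, 43.1%, 46.4% and 47.2%. TIM 9 was gained from 3160001 on over 118 Mb, in 7 segments between 0.34 and 0.59, with 0.54 at Ppm1d, Tbx2 and Brip1, 0.59 from Nme2 to Brca1 and 0.58 at Sox9 and Birc5. The GC contents of the segments holding these genes were 44.3%, 46.4% and 49.7%, and that of its lowest gained segment, at 0.34 over proximal Chr 11, was 40.8%. The part of GC content and of the segmentation in these small steps was not tested.

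**Figure D3:**
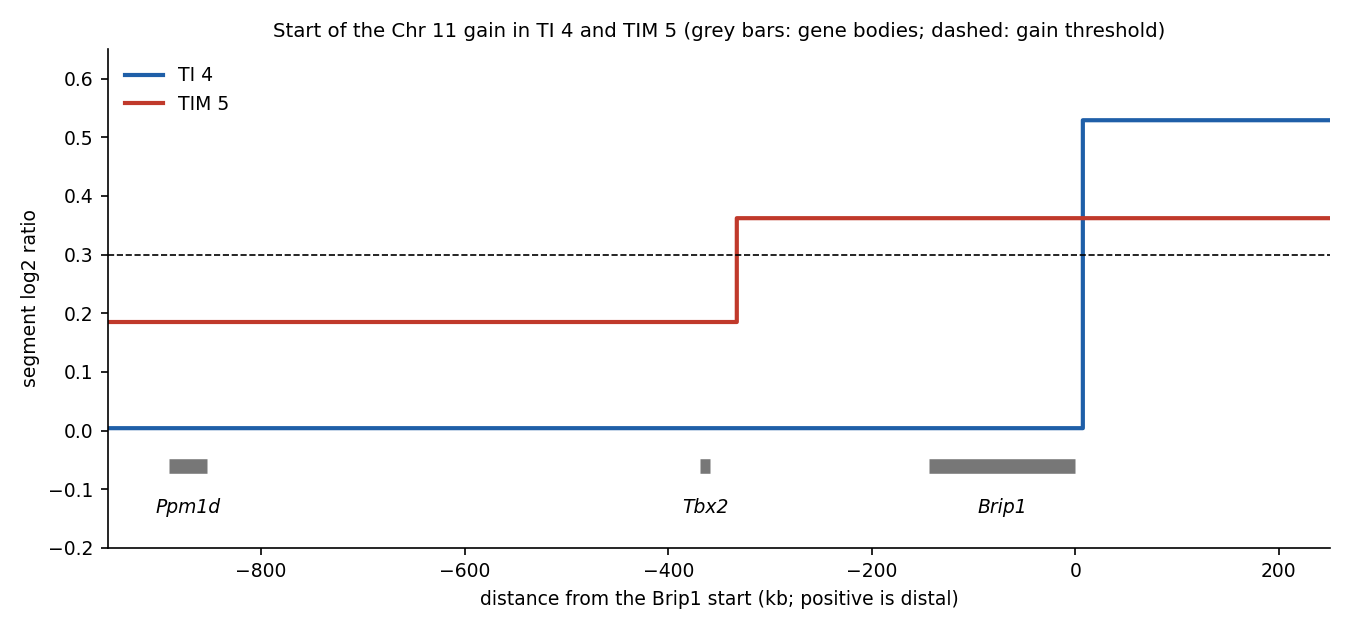
Segment log2 ratio of TI 4 and TIM 5 against the distance from the Brip1 start in kb, positive toward the distal end, with grey bars for the bodies of Ppm1d, Tbx2 and Brip1 and a dashed line at 0.3. TIM 5 rises from 0.19 to 0.36 between Tbx2 and Brip1, and TI 4 rises from 0.004 to 0.53 just past Brip1, so that Brip1 is gained in TIM 5 and not in TI 4.

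The region gained in all 7 TI tumors ran from 86100001 to 121800000, over 35.7 Mb with 672 protein-coding genes, and held 6 of the 9 genes, from Nme2 to Birc5. Its proximal border was set by TI 4 alone. Including TIM 5 and TIM 9, the part gained in all 9 tumors was 2 stretches, 86100001 to 89020000 with 45 genes and none of the set (0 of 9), and 96780001 to 107920000 with 314 genes, among them Top2a and Brca1. At the threshold of 0.3, these 2 genes were the only ones of the set gained in every tumor that had a gain of any. This did not hold at other thresholds, since Nme2 and Nme1 joined them at 0.2, and all 6 genes from Nme2 to Birc5 were alike in this at 0.1 and at 0.5.

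**Figure D4:**
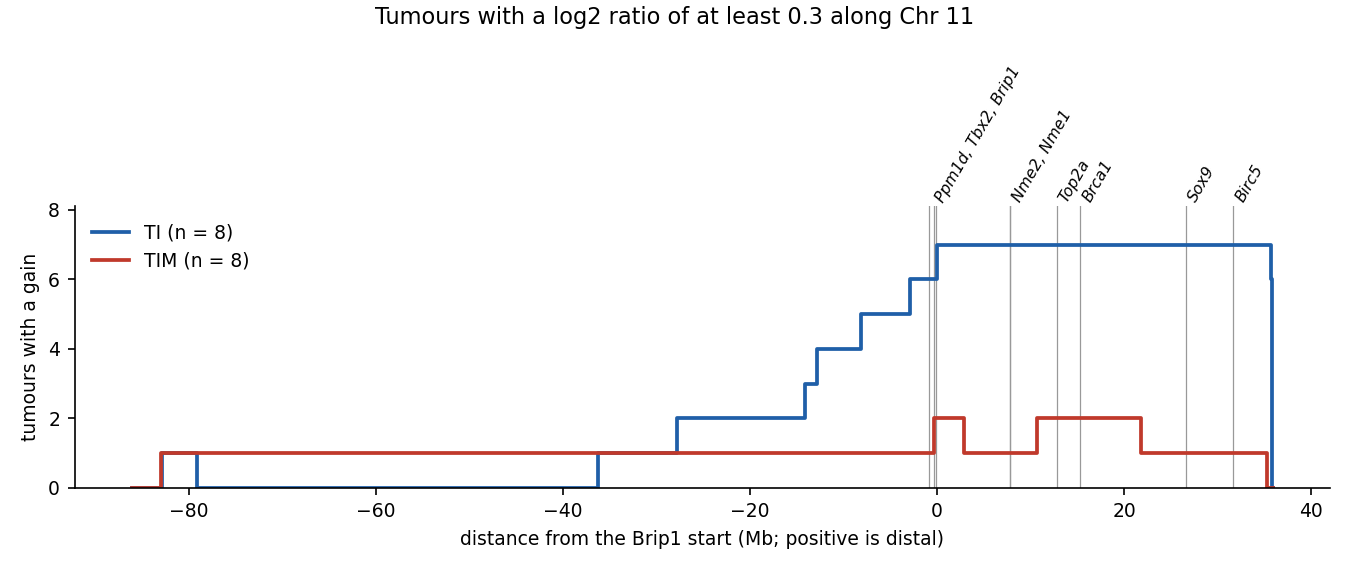
Number of TI and TIM tumors (n = 8 each) with a log2 ratio of at least 0.3 along Chr 11, against the distance from the Brip1 start in Mb, positive toward the distal end. The TI count climbs to 6 at Ppm1d and 7 from just past Brip1 on, and the TIM count is 2 at Brip1, Top2a and Brca1 and 1 at the other genes.

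The level of the set was above that of proximal Chr 11 in 7 of 8 TI tumors. Against the median of Egfr, Rel, Xpo1, Ikzf1 and Meis1, genes of Chr 11 whose human counterparts are not on Chr 17, the median of the 9 genes was higher by 0.565 in TI 1, 0.954 in TI 2, 0.599 in TI 3, 0.525 in TI 4, 0.379 in TI 5, 0.589 in TI 7 and 0.577 in TI 8, and it differed by -0.009 in TI 6. In TIM 5 and TIM 9 the difference was 0.215 and 0.243. TI 5 and TIM 9 had the smaller differences among tumors with all 9 genes gained, as their proximal Chr 11 was raised too, to 0.23 in TI 5 and 0.34 in TIM 9.

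Other genes of Chr 11 showed how far the pattern extends. Of 15 further cancer genes matching 17q, 14 were gained in 7 TI tumors (3.26% of all genes), among them Erbb2, Stat3 and Axin2, and 9 in 2 TIM tumors (7.2% of all genes). The exception, Nf1, a Ras inhibitor that lies proximal to Ppm1d, was gained in 5 TI tumors. TI was called higher than TIM for 13 of the 15 (exact permutation test, BH over all genes), against 10.7% of all genes, and the 2 not called were Nf1 (adjusted p = 0.317) and Rad51c (adjusted p = 0.0684), the latter within the TI 6 loss. Aurkb, Map2k4, Ncor1 and Flcn, whose human counterparts lie on 17p, were each gained in 2 TI and 1 TIM tumors, and none of the 4 was called (adjusted p of Aurkb 0.838).

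The functional partners and relatives of the 9 genes lie mostly elsewhere in the genome, and 16 of 22 were gained in 0 TI tumors, as were 76% of all genes. Tbx4, the neighbor of Tbx2, was gained in 6 TI and 2 TIM tumors. The paralogs Nme3 and Nme4 and the Sox9 relative Sox8, all on Chr 17, were gained in 2 TI and 0 TIM tumors and were called higher in TI (adjusted p = 0.0484 each, exact permutation test). They were the only 3 of the 22 called higher, against 10.7% of all genes. The kinase genes Atm and Chek1, whose products are opposed by Ppm1d, both on Chr 9, were called lower in TI than in TIM (adjusted p = 0.0271 each, exact permutation test). They were among 6 of the 22 called lower, against 10.8% of all genes, and 5 of these 6 lie on Chr 9 (Atm, Chek1, Nme6, Birc2 and Birc3). Their log2 ratio ranged from -0.34 in TI 4 to 0.01 in TI 6 at Atm and from -0.38 in TI 3 to 0.01 in TI 6 at Chek1, so none of these values reached the loss threshold of -0.4. Birc2 and Birc3, relatives of Birc5, did so in TI 3, at -0.63. Of the chromosomal passenger partners of Birc5, Incenp and Cdca8 had a gain in no tumor (0 of 16) and Aurkb in 3, while Cdca8 had a loss in TI 6, at -0.91.

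To find genes with a like pattern on other chromosomes, the mean absolute difference from the median of the 9 genes was taken over the 16 tumors, and the closest gene per chromosome was listed. The smallest differences were 0.110 for Srp54a on Chr 12 (one of 4 genes with the same values), with the same gain call in 13 of 16 tumors, 0.216 for Dll1 on Chr 17 (11 of 16) and 0.286 for Potefam3e on Chr 8 (9 of 16). A gene gained in no tumor already has the same call in 8 of 16, as Anks1b on Chr 10 with a difference of 0.311, so that Potefam3e was close to a flat gene. Srp54a was gained in 5 TI and 0 TIM tumors. All points share the same 16 libraries, and no test was made.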

How the data were processed

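Per the labels and methods, the authors trimmed reads with cutadapt 2.8, aligned them to mm39 with HISAT2 2.1.0 and determined copy number with cn.MOPS against the wildtype adrenal glands. SAMtools 1.10 is named in the submitters' processing notes. The deposited table holds median and mean log2 ratios per segment and sample, relative to AG. Window length is not given in the sources used here, and segment edges lie on a 20 kb grid. The depth behind each segment was not analysed here, so no counting interval is given. The length of Chr 11 equals that of GRCm39.

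Here, each of 20621 autosomal protein-coding genes (GENCODE M39) took the median log2 ratio of the segment covering most of its body. Groups came from the sample descriptions. They were compared by two-sided exact permutation tests of the rank sum and gain counts by Fisher's exact test, with BH adjustment over all genes. All 9 genes and Igf2bp1 were named, and lists were given by counts. One further landmark gene is not reported here. The 9 genes, lists, tests and alternatives were chosen with earlier results of these data known. Alternatives were other gain thresholds, a difference of means, the mean of a segment, the highest or the start-site segment, subtraction of the autosomal median, stretches in place of genes, a replicate block, IGF2BP1 +/+ tumors, tumors not labeled as adrenal gland, gaps under 1 Mb bridged and each replicate left out. TIM 5 and TIM 9 were left out together after seeing the data. The tests were tested on simulated data, where shifts of 2.5 SD were recovered in 86.5% of 200 changed features for TI against TIM and in 65.5% for the comparisons with AGM, of 2000 features each, and 7.49% and 2.96% of the calls were false. The simulated features were independent draws from a normal distribution. The genes here share segment values, so these rates need not hold for them. Scripts were run in Python 3.11.15 with scipy 1.17.1, numpy 2.4.6 and pandas 2.3.3, and figures were drawn with matplotlib 3.10.9.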

Additional observations from a re-analysis of the deposited data

Results flagged for a closer look

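In 15 sets of values, the 5 patterns of the 9 genes in AGM, TI and TIM, the highest or lowest sample was compared with the others by Dixon's test, which marks about 1 in 20 groups by chance, or 0.75 of 15. A sample far from the others was found in 6 sets, all through TIM 9 or TI 6. TIM 9 was the highest TIM tumor at Ppm1d and Tbx2 (0.545, next 0.185), at Nme2 and Nme1 (0.588, next 0.224) and at Sox9 and Birc5 (0.581, next 0.121). At Brip1, Top2a and Brca1 it was not marked, since TIM 5 lay closer there. TI 6 was the lowest TI tumor at Nme2, Nme1, Top2a, Brca1, Sox9 and Birc5 (0.028, next 0.529). At Ppm1d, Tbx2 and Brip1 it was not marked, as TI 4 was low as well. The sets share tumors and neighboring segments and are not independent. In AGM all patterns hold the same values. In TI the set of Brip1 equals that of Ppm1d with Tbx2, and those of the other genes equal each other. The mark of TI 6 is therefore 1 comparison repeated, and the count of 6 cannot be set against 0.75.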

How the results depend on the processing

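Of 621 results recomputed under the alternatives, 582 stayed on the same side of their threshold with the same sign, or moved by less than the spread, and none reversed (0 of 621). The count of genes called higher in TI than in TIM, 6 of 9, was 2 with IGF2BP1 +/+ tumors only and ranged from 0 to 9 when single replicates were left out. It was 9 with a difference of means or with the autosomal median subtracted, and 6 with tumors not labeled as adrenal gland only. The cause of these shifts was not tested. The count of genes called higher in TI than in AGM, 6 of 9, ranged from 6 to 9 when single replicates were left out. No gene was called between TIM and AGM, or by Fisher's exact test, in any alternative run (0 of 9). The breakpoint of TI 5 moved to 3.26 Mb with gains called from 0.2 and to 79.3 Mb from 0.5, and that of TIM 9 to 68.6 Mb at 0.5, while the median of TI was 73.3 Mb at 0.2 and 77.96 Mb at 0.5, where TIM 5 had no gain.

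Samples with the same replicate number were not paired by the labels, and their deviations correlated between -0.37 and 0.40 for TI and TIM, -0.10 and 0.04 for TI and AGM, and -0.12 and 0.03 for TIM and AGM. With the replicate number as a block, 0 of 9 genes were called between TI and TIM and 0 of 9 between TI and AGM, where 5 pairs allow no exact p below 0.0625. The coverage and the 20 kb grid limit how closely a breakpoint can be placed.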
